A study of Caenorhabditis elegans with 4 samples.

Results

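CEC-3 peaks in the central parts of chromosomes II, III, IV and V of Caenorhabditis elegans are the 934 whole-series peaks, of 14075 in all, whose midpoint falls in the middle of 3 equal lengths of its chromosome. On WormBase WS220 these middle stretches are 5.09 Mb long on II, 4.59 Mb on III, 5.83 Mb on IV and 6.97 Mb on V. The 4 stretches, called centres here, make up 22.5 Mb, or 22.4% of the length of the 6 chromosomes, and the outer parts of the same chromosomes are called arms. Only position chose the peaks, so their scores, widths and support in the replicates are free to be compared. Their spacing depends on peak density, which is lower in the centres than in the arms.

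Chromatin immunoprecipitation and sequencing (ChIP-seq) was done with an affinity-purified rabbit polyclonal antibody against T09A5.8, which the gene table of assembly WBcel235 names cec-3. All samples were hermaphrodites of the strain fem-2(b245), genotype fem-2(b245)III, labelled as young adults with a germline and kept at 20 °C, and the growth protocol describes gravid adults. Ground frozen worms were fixed in 1% formaldehyde for 10 min, and whole worms were used, so all tissues are mixed. The 4 samples are 2 T09A5.8 ChIP replicates and 2 input DNA replicates, and no label says whether replicates came from separate cultures, so their spread may be technical.

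CEC-3 has a chromodomain, a module that reads methyl groups on histone tails, and it recognises histone H3 when its lysine 9 carries them, as it does in silent chromatin. In C. elegans this mark and the repeats it covers lie mainly on the autosome arms, whereas the centres are rich in genes and poor in repeats, and recombine little. FEM-2 is a protein phosphatase of the sex determination pathway that is needed for sperm formation. The values used here are the authors' peak lists: 1 for each ChIP replicate and 1 for the whole series. They hold no read counts, so the depth of every sample is unknown, and the input was not analysed here. The score of a peak is the value the authors' caller gave it, on a scale that differs between the whole-series and the replicate lists.

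The centres were sparsely marked, and III more densely than the others. Chromosome II held 151 of the 934 peaks, III held 275, IV held 222 and V held 286. In peaks per Mb of the whole-series list that is 29.6 on II, 59.9 on III, 38.1 on IV and 41.0 on V, so III was the densest and II the sparsest. In the replicate lists the centres held 271 peaks in replicate 1 and 302 in replicate 2. II had 10.8 peaks per Mb in replicate 1 and 11.98 in replicate 2, III had 16.5 and 18.5, IV had 11.3 and 12.9, and V had 10.6 and 11.6. III was the densest in both, and the ranges of II, IV and V overlap. Peaks covered 3.48% of the bases of the 4 centres in the whole-series list and 3.77 ± 0.240% in the replicates (SD, n = 2), against 18.0% and 17.5 ± 0.0320% of the arms.

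**Figure D1:**
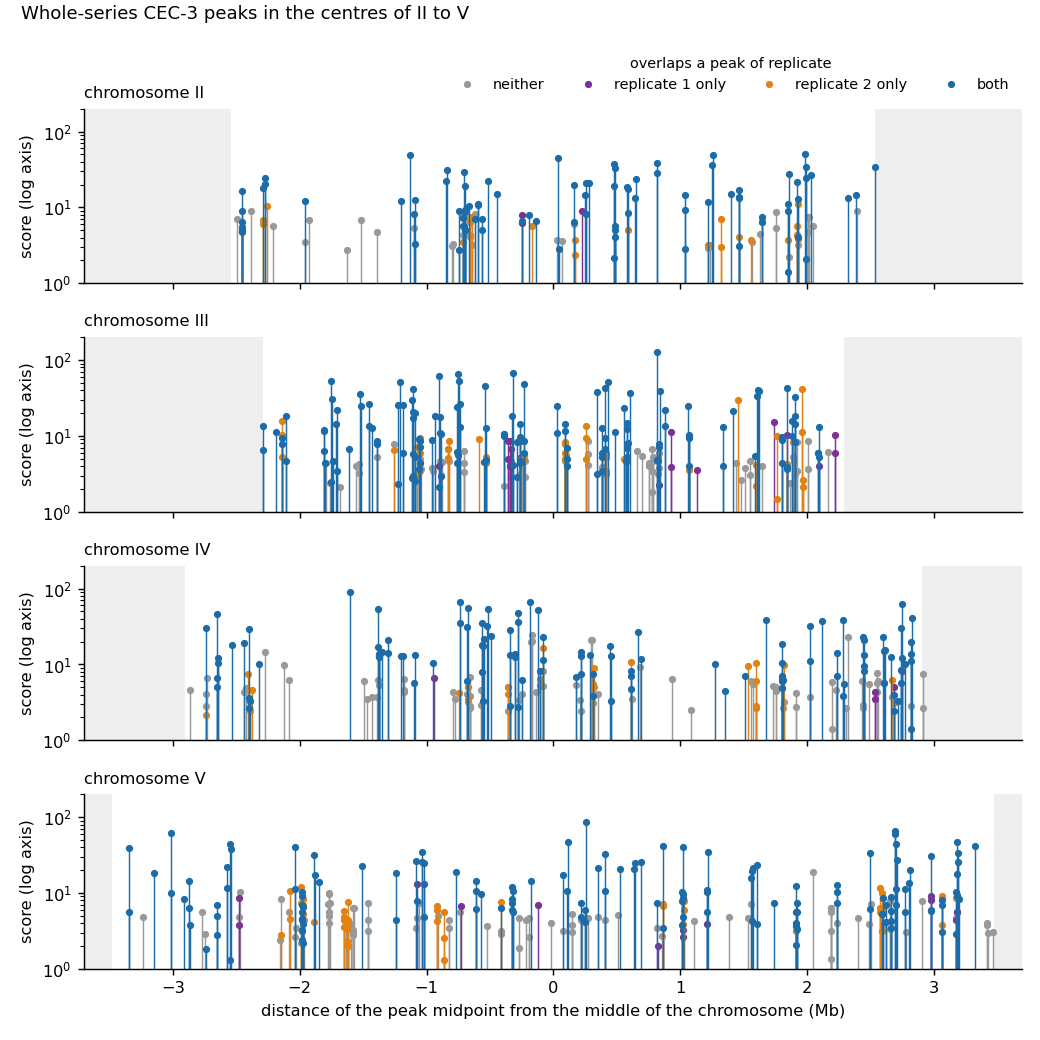
Score of each of the 934 whole-series peaks (log axis) against the distance of its midpoint from the middle of the chromosome in Mb, coloured by the replicates it overlaps, with the arms shaded grey. The highest scores, up to 128.02 on III, belong mostly to peaks found in both replicates, and stretches with few or weak peaks lie between them.

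The peaks, like those of the arms, were mostly narrow and weak, with a minority of strong wide ones. The median score was 6.36, with quartiles of 4.23 and 12.12, and the median width was 378.5 bp. Peaks of at least 1000 bp numbered 195, or 20.9%, and held 65.4% of the bases that the 934 peaks cover. In the arms of II to V such peaks made up 22.3% and held 68.2% of the covered bases. The arm medians were 6.7 for score and 392 bp for width. Score and width went together (Spearman's rho 0.788 across the 934 peaks, which are not independent replicates). The centres hold 6.64% of the whole list. Of its 1000 highest-scoring peaks they hold 79, or 7.9%, of the 500 highest 33, or 6.6%, of the 100 highest 3 and of the 25 highest 1.

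By score and width a centre peak differed from an arm peak of the same chromosome by less than the chromosomes differed among themselves. The log2 ratio of the median whole-series score, centre over arms, was 0.28 on II, -0.24 on III, -0.04 on IV and -0.22 on V. Its mean was -0.05 ± 0.24 (SD over 4 chromosomes; a two-sided exact test that flips signs over chromosomes, p = 0.88). The log2 ratio of the median width was 0.42 on II, -0.22 on III, 0.03 on IV and -0.13 on V, with a mean of 0.02 ± 0.28 (same exact test, p = 0.88). In the replicate lists the log2 ratio of median scores averaged 0.15 ± 0.31 (SD over 4 chromosomes; same exact test, p = 0.50). It was positive on II, III and IV, at 0.21, 0.41 and 0.27, and negative on V, at -0.30. An exact sign-flip test over 4 chromosomes cannot go below p = 0.13, so no p here can pass 0.05.

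Support in the replicates was much the same in size for centre and arm peaks. A peak of both replicates overlapped, by at least 1 bp, 487 of the 934 centre peaks, or 52.1% (95% Wilson interval 48.9 to 55.3%, which covers counting error only). Over all 14075 peaks the share was 53.8%, and over the 8845 arm peaks of II to V it was 53.3%. By chromosome it was 58.9% on II, 51.6% on III, 51.4% on IV and 49.7% on V, and in the arms of the same chromosomes 49.5%, 56.3%, 55.4% and 51.9%. Only on II was the centre higher. The mean difference, centre minus arms, was -0.39 ± 6.64 percentage points (SD over 4 chromosomes; exact two-sided permutation of signs, p = 1). The sign of this mean is not fixed: counted in replicate 2 alone it was 3.92 and in replicate 1 alone -5.41 percentage points.

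Peaks found in both replicates carried most of the covered bases. Their median score was 10.73, their median width 711 bp, and they held 80.5% of the bases covered in the centres. In the arms of II to V these values were 10.3, 697 bp and 72.4%. The arms of V had the lowest share of bases, at 62.1%, and on IV the arms were higher than the centre, at 80.6% against 77.5%. The 268 peaks found in neither replicate, 28.7% against 27.0% of all whole-series peaks, were weaker and narrower, with medians of 4.375 in score and 220 bp in width. Support rose with width: 64 of 282 peaks under 250 bp were in both replicates, or 22.7%, and 187 of the 195 peaks of at least 1000 bp, or 95.9% (95% Wilson interval 92.1 to 97.9%). Between these, 37.5% of the peaks from 250 to under 500 bp and 74.0% of those from 500 to under 1000 bp were in both. In the arms the shares, from the narrowest class to the widest, were 27.6%, 41.3%, 74.8% and 85.8%, so the centres were higher in the widest class only. In that class the gap was widest on V, at 96.0% against 74.9%. Without V the share was 95.9% in the centres and 91.9% in the arms, and on IV the centre was lower, at 92.0% against 93.4%.

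Against score the pattern was alike. Whole-series peaks were split at scores of 4.35, 6.72 and 12.81 into 4 groups of about equal number. From the lowest group to the highest, the share of centre peaks in both replicates was 26.0%, 34.8%, 60.6% and 93.2%, and that of arm peaks was 28.0%, 37.6%, 63.6% and 85.8%. In the highest group every one of 42 centre peaks on II was in both replicates. There 55 of 60 were on III, 58 of 66 on IV and 51 of 53 on V. The arms had 90.9% on II, 90.8% on III, 93.1% on IV and 73.9% on V in this group, so the centre was not higher on IV, and the excess on V was 22.3 percentage points.

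**Figure D2:**
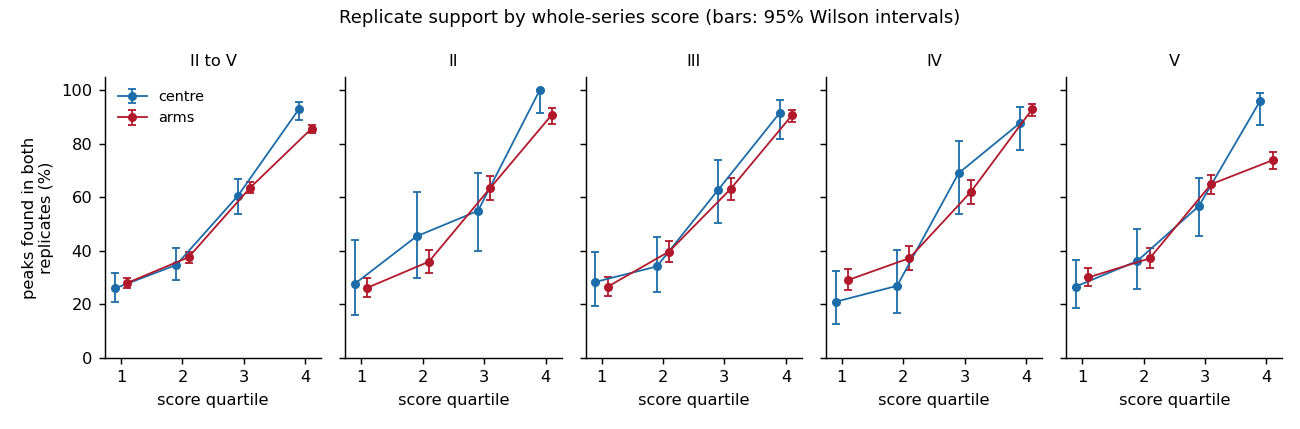
Support of whole-series peaks by both replicates (%) against the quartile of the whole-series score, for centres and arms together and by chromosome, with 95% Wilson intervals. The widest gap is in the highest quartile of V, at 96.2% for the centre and 73.9% for the arms, and on II and IV single quartiles differ in either direction, such as 26.9% against 37.3% in the second quartile of IV.

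Seen from the replicate lists, nearly every centre peak of replicate 1 was found again. A peak of replicate 2 overlapped 251 of its 271 centre peaks, or 92.6% (95% Wilson interval 88.9 to 95.2%), against 89.0% of all its peaks. Replicate 1 overlapped 255 of the 302 centre peaks of replicate 2, or 84.4% (79.9 to 88.1%), against 85.3% of all. Averaged over both directions, the difference of centre minus arms was 2.11 ± 4.63 percentage points (SD over 4 chromosomes; exact two-sided permutation of signs, p = 0.50). It was 7.54 on II, -3.08 on III, 3.98 on IV and -0.0045 on V. The 20 unshared centre peaks of replicate 1 had a median score of 86.0 and the 47 of replicate 2 one of 110.07, far below the 528.61 and 797.54 of the shared ones. A whole-series peak lay under 271 of 271 centre peaks of replicate 1 and 301 of 302 of replicate 2. The arms of II to V were alike, at 99.6% of replicate 1 peaks and 99.3% of replicate 2 peaks. How the replicates entered the whole-series list is not stated, so this overlap may not be independent of them.

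Where both replicates marked a centre site, they drew nearly the same borders. In 242 pairs, in which each replicate peak met a single partner, the starts differed by a median of 76.5 bp and the ends by 93.5 bp, and the median shared part was 91.1% of the bases spanned. Scores of the pairs had a Spearman's rho of 0.909, and of 0.825 over the 193 pairs in which both scores were under 3100, the value at which scores of the replicate lists pile up. The 1626 arm pairs of II to V were alike, with median differences of 85.5 bp at the start and 89 bp at the end. Their median shared part was 90.5%, and rho was 0.891, or 0.826 over pairs under 3100. These are descriptions across peaks, which are not replicates. Over all their centre peaks the replicates shared 749.9 kb, or 92.6% of what replicate 1 covered there and 84.6% of what replicate 2 covered. The same shares in the arms were 87.1% and 86.9%.

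**Figure D3:**
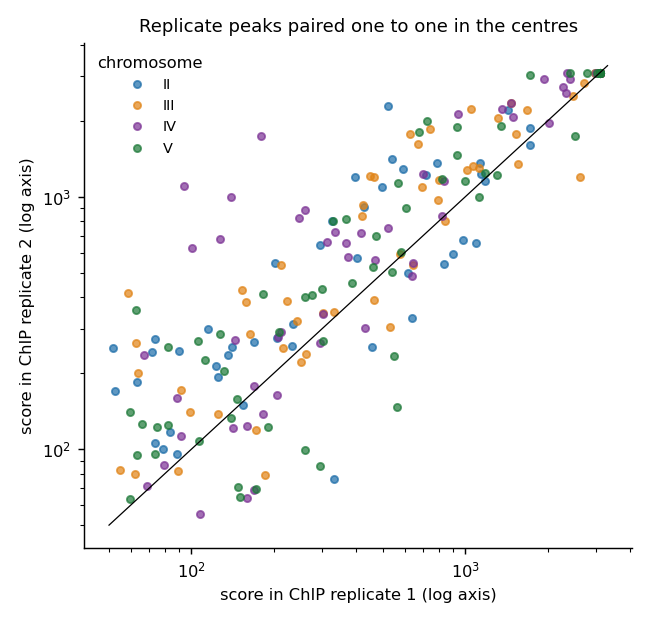
Score in ChIP replicate 2 against the score in ChIP replicate 1 for the 242 pairs of overlapping centre peaks (log axes, the line marks equal scores, colours mark chromosomes). Points follow the line and most lie above it, and the strongest pile up at 3100 in both.

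Centre peaks met by a single replicate were mostly met by replicate 2. Of the 934 peaks, 138 or 14.8% overlapped a peak of replicate 2 only and 41 or 4.39% a peak of replicate 1 only, a ratio of 3.37. Over all whole-series peaks the shares were 10.7% and 8.47%, and in the arms of II to V 10.1% and 9.18%, a ratio of 1.10. The centre counts for replicate 2 only and replicate 1 only were 22 and 3 on II, 49 and 18 on III, 24 and 5 on IV, and 43 and 15 on V. In the arms they were 244 and 143, 218 and 252, 173 and 151, and 257 and 266. The log2 ratio of the counts was higher in the centre than in the arms on 4 of 4 chromosomes, by 1.85 ± 0.28 (SD over 4 chromosomes; exact two-sided permutation of signs, p = 0.13, the smallest possible). Scores of paired peaks under 3100 leaned the same way. Replicate 2 had the higher score in 145 of 193 such centre pairs, or 75.1%, and in 65.3% of 1350 arm pairs. The median log2 score ratio of replicate 2 over replicate 1 was 0.49 in the centres and 0.30 in the arms, and the difference averaged over chromosomes was 0.18 ± 0.07 (SD; same exact test, p = 0.13, positive on 4 of 4). Both comparisons were chosen after the values were seen. The centre of I had 18 and 12 such peaks, a ratio of 1.50, and that of X had 16 and 14. The arms of X had 114 and 35, a ratio of 3.26, so an excess of replicate 2 was not limited to centres. Whole-series peaks were counted here, and several can lie under 1 replicate peak, even under 1 that the other replicate meets in part. Counted as replicate peaks, those without overlap in the other replicate were 47 in replicate 2 and 20 in replicate 1 in the centres. In the arms they were 345 and 275. Read depth could differ between the replicates and is unknown, and its part in the excess of replicate 2 was not tested.

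**Figure D4:**
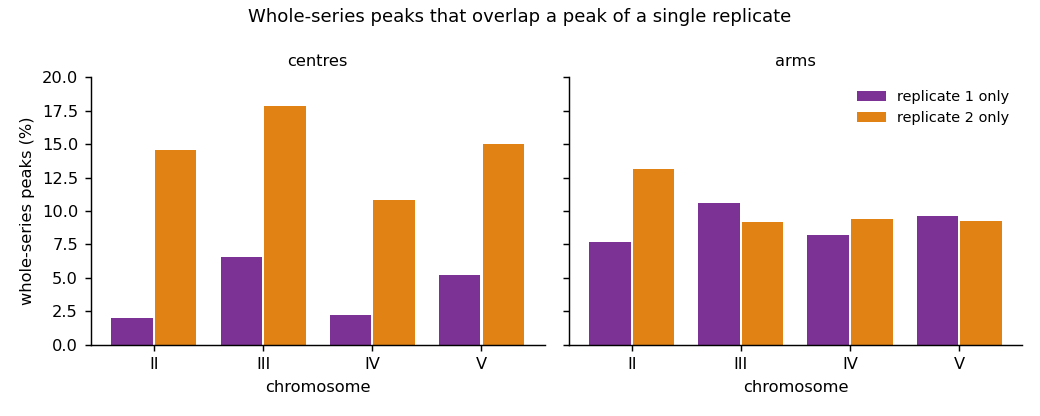
Whole-series peaks (%) met by replicate 1 only or by replicate 2 only, by chromosome, in centres and in arms. In the centres the bar of replicate 2 is the higher on each of the 4 chromosomes, and in the arms on II and IV.

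Centre peaks came in small clusters. The nearest other peak lay a median of 195 bp away, against 161 bp in the arms, and 83.9% of centre peaks had another within 5 kb, against 95.4% of arm peaks. The difference, centre minus arms, was -14.4 percentage points on II, -7.75 on III, -16.1 on IV and -9.81 on V, with a mean of -12.02 ± 3.89 (SD over 4 chromosomes; exact two-sided permutation of signs, p = 0.13, the smallest possible). Density moves with it, at 41.5 peaks per Mb in the centres and 196.6 in the arms, and its part in this was not tested. Joined over gaps of up to 5 kb, the 934 peaks formed 352 sites with a median span of 1.65 kb, and the widest spanned 21.2 kb. In the arms of II to V the same joining gave 1290 sites, of up to 880.1 kb. Sites of a single peak numbered 150, sites of 2 to 4 peaks 143 and sites of 5 or more peaks 59. A member in both replicates was present in 62 of the single-peak sites, or 41.3% (95% Wilson interval 33.8 to 49.3%), in 65.0% (56.9 to 72.4%) of those of 2 to 4 peaks and in 52 of the 59 largest, or 88.1% (77.5 to 94.1%). A site of more peaks has more chances to hold such a member, so a rise with site size is partly built into this count. Over all sites, 207 of 352 in the centres held such a member, or 58.8%, and 810 of 1290 in the arms, or 62.8%.

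The most covered site of each centre was strong in both replicates. On II, 2 peaks from 8890489 to 8903416 covered 12.8 kb, and a single peak of each replicate spanned the whole of it. On III, 8 peaks from 6132287 to 6153474 covered 15.4 kb, and all 8 were in both replicates. On IV, 9 peaks from 7356164 to 7372615 covered 10.8 kb, of which 6 were in both. On V, 6 peaks from 13153786 to 13172541 covered 16.8 kb, and all 6 were in both. Each of these sites was at least 67.1% covered by peaks of replicate 1 and at least 68.7% by peaks of replicate 2.

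The highest-scoring centre peak was on III, from 7708813 to 7713744, with a score of 128.02, the fourth highest of the whole list. It is 4932 bp wide and lies inside a single peak of 5924 bp in replicate 1, from 7708149 to 7714072, and of 5535 bp in replicate 2, from 7708504 to 7714038. On the same centre followed 6565180 to 6574649 (score 66.9), 6136600 to 6140527 (65.57), 5989950 to 5993070 (61.5) and 6144414 to 6150781 (53.17). All 5 had a score of 3100 in both replicates.

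On IV the highest score was 90.55, at 7144905 to 7148431. Its replicate peaks, 7144530 to 7148711 and 7144625 to 7148513, are alike in width at 4182 and 3889 bp, and its nearest whole-series neighbour lies 102566 bp away. The next on IV were 8005018 to 8009863 (66.28), 8565295 to 8566383 (66.08), 11492068 to 11496454 (62.47) and 8067830 to 8071761 (55.26). The second of these 4 is only 1089 bp wide, and scored 2349.64 in replicate 1 and 3100 in replicate 2.

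On V the leading peak was also the widest of the 934, at 15916 bp, from 10714647 to 10730562 with a score of 87.43. It was met by a peak of 18051 bp in replicate 1 and of 16730 bp in replicate 2. The others on V were 13153786 to 13157613 (65.61), its neighbour 13157696 to 13162182 (59.62), 7442904 to 7445123 (62.33) and 13645364 to 13647899 (46.94). Peaks of 8848 and 8730 bp in the replicates spanned both neighbours.

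II had the lowest leading scores. They were 51.41 at 9619924 to 9622885, 48.75 at 6503565 to 6509458, 48.74 at 8895072 to 8903416, 44.55 at 7673577 to 7680170 and 38.51 at 8459819 to 8460447. The first scored 1723.85 in replicate 1 and 1867.48 in replicate 2. The last, the narrowest of these leading peaks at 629 bp, scored 394.81 and 1194.55, so the replicates were further apart there. Of the 20 leading peaks of the 4 centres, 17 reached 3100 in both replicates.

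Most of the strong centre peaks that both replicate lists lack lay on IV, some of them side by side. Of the 221 peaks in the highest score group, 206 were in both replicates, 2 in replicate 1 only, 5 in replicate 2 only and 8 in neither. The share in both was 93.2%, against 85.8% of 2240 arm peaks, whose share in neither is not given here. Of the 8 centre peaks in neither, 7 lie on IV and 1 on V. On IV 3 of them form a nearly unbroken stretch from 8572567 to 8581763, with scores of 19.78, 20.61 and 24.69, that covered 97.5% of its 9.20 kb. The replicate peaks around it lay 59.5 kb apart in replicate 1 and 59.4 kb apart in replicate 2. The nearer of them lay 5.94 kb away in replicate 1 and 5.86 kb in replicate 2, at the leading peak from 8565295 to 8566383. The others on IV were 6468937 to 6469758 (14.51), 9046916 to 9047774 (20.96), 9048072 to 9048725 (20.8) and 11070839 to 11075796 (23.33), and the one on V was 12509905 to 12510487 (19.19). The highest-scoring peak found in neither replicate scored 9.05 on II, at 5252395 to 5252719 and equally at 10033866 to 10034497, and 10.73 on III, at 6502000 to 6502498. Altogether 104 of the 352 centre sites, with 160 peaks, met no replicate peak. They had a median of 258.5 bp covered, and 4 of them held 5 or more peaks. Arm sites without a replicate peak were not counted. Counted as single peaks of any score, 28.7% were in neither replicate in the centres and 27.4% in the arms.

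V also held a crowd of low-scoring peaks. When each centre was divided into 10 equal bins, the densest bin by whole-series peaks lay from 8369612 to 9067079 on V. It held 61 whole-series peaks, of which 19 were in both replicates, and 5 peaks of replicate 1 and 10 of replicate 2. Replicate peaks are wider, with medians of 2067.5 and 2043 bp against 395 bp over the whole lists. The bases covered in this bin were 5.30% in the whole-series list, 4.31% in replicate 1 and 6.53% in replicate 2. The site with the most peaks lies there, with 20 peaks from 8472187 to 8492090, a highest score of 11.91 and 13 peaks in both replicates. Replicate 1 had a single peak across it, covering 68.2%, and replicate 2 had 3 peaks covering 89.2%. A pair of further sites in the same bin, of 7 peaks from 8688374 to 8696680 and of 6 peaks from 8878950 to 8887146, met no replicate peak.

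Between the sites the centres had long stretches free of peaks. Gaps over 100 kb between neighbouring whole-series peaks of a centre made up 56.2% of the centre of II, 33.3% of III, 48.9% of IV and 49.5% of V. Gaps that cross a limit of the centre were left out in every list, so these shares can be too low. In replicate 1 they made up 72.0%, 57.8%, 64.9% and 72.1%, and in replicate 2 65.6%, 49.0%, 64.2% and 70.1%, so III had the smallest empty part in each list. The longest lay on II in replicate 1, 751.0 kb from 5683259 to 6434265, and replicate 2 had 750.8 kb from 5683363. The next was on IV, 720.1 kb from 6424434 to 7144529 in replicate 1 and 720.3 kb in replicate 2, and it ends at the strongest peak of IV. The whole-series list held some peaks in both stretches, where its longest gaps were 299.5 kb and 479.0 kb. On III the lists were close to each other, with 299.3, 298.8 and 298.7 kb from about the same start.

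Along each centre there was no steady rise toward the arms. The log2 ratio of whole-series density in the outer parts of a centre over its inner part was -0.36 on II, -0.88 on III, -0.03 on IV and 0.20 on V. Its mean was -0.27 ± 0.47 (SD over 4 chromosomes; exact two-sided permutation of signs, p = 0.375). The means in the replicate lists were -0.36 in replicate 1 and -0.25 in replicate 2. With the centre widened to the middle 50% of the chromosome the mean turned positive, at 0.34. Across the 10 bins, peaks covered from 0.425% to 5.72% of the bases on II in the whole-series list, from 1.48% to 7.51% on III, from 0.369% to 8.05% on IV and from 1.28% to 5.30% on V. The most covered bin of IV, from 8163792 to 8746919, reached 7.06% in replicate 1 and 7.76% in replicate 2, and its least covered, from 6414408 to 6997535, 0.182% and 0.163%.

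**Figure D5:**
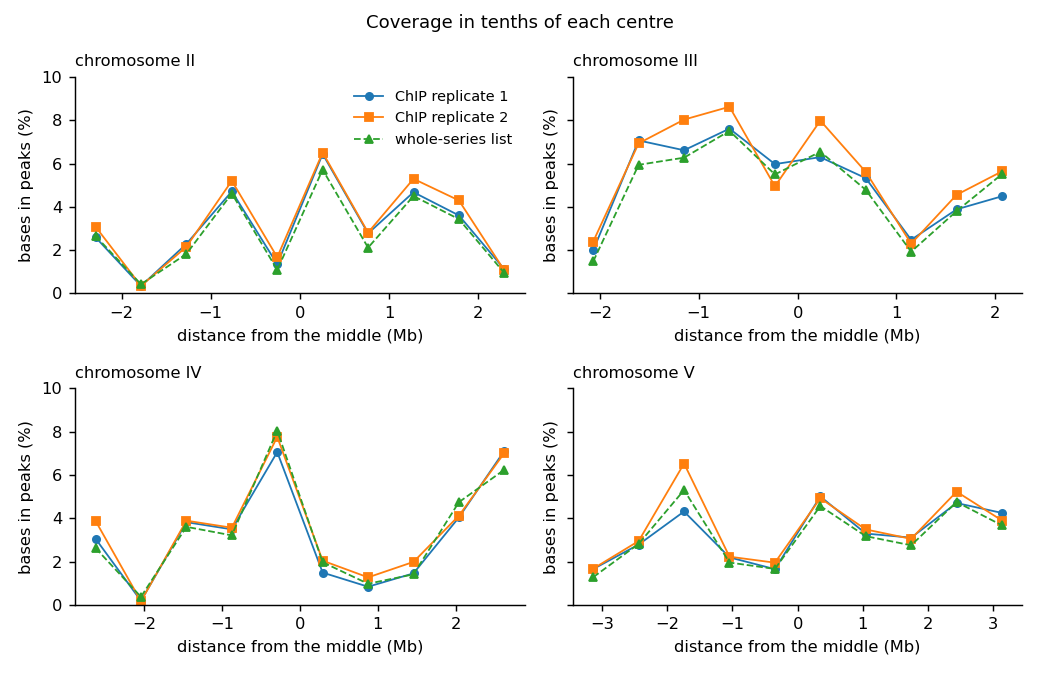
Bases in peaks (%) in each of 10 equal bins of the centre, placed by distance from the middle in Mb, for both ChIP replicates and the whole-series list, with each peak counted at its midpoint. Values lie between 0.163% and 8.63%, the lists follow each other closely on II and IV and less so on III and V, and no centre climbs steadily toward its ends.

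Peaks next to the limits of the centres varied widely. The last peaks inside scored between 2.65, at 11661993 to 11662152 on IV, and 34.62, at 10174415 to 10175000 on II. The first peaks outside scored between 2.8, at 6794031 to 6794204 on V, and 19.99, at 9236568 to 9238484 on III. Genes and repeats under the peaks were not analysed here, since the gene table at hand is of WBcel235 and the peaks are placed on WS220.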

How the data were processed

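ChIP-seq of T09A5.8 was analysed from 3 deposited peak lists, 1 for each of the 2 ChIP replicates and 1 for the whole series. Reads were aligned with BWA to ce10, per the submitters' processing notes, and peaks are placed on WormBase WS220, per the file headers. The source column names MACS for the replicate lists and MACS v2 for the whole series. For the control, the thresholds and how the replicates were combined, the answer is not given in the sources used here. The score column is the authors' deposited value, and its scale is not stated. Scores were compared within a list only, except for the ratio of paired replicate scores. Start and end are the other values used.

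Peaks were placed by midpoint, and lists were called overlapping from 1 bp. For alternatives, chromosomes I and X and shares of length, chromosome length was the largest peak end in any list. Centres and arms were compared by exact two-sided permutation, flipping the sign of each chromosome's difference on II to V, since neighbouring peaks are not independent, and 95% Wilson intervals cover counting error only. The read depth is unknown. No peak had the same start and end in both replicates. Named peaks are, on each chromosome, the 5 highest-scoring in both replicates, the highest-scoring in neither, the most covered site, and those next to a limit. The highest-scoring group missing from the replicates, the V cluster and the named bins were chosen after their values were seen. The peaks and tests were chosen with earlier results of these data known. The functions were tested on 5100 simulated peaks, where a set difference in shares of -20 percentage points came out as -20.6, a set log2 score ratio of 0.5 as 0.44, a width ratio of -0.4 as -0.38, an outer-to-inner ratio of 1 as 0.88, and a set log2 ratio of 2 in single-replicate counts as 2.03. The 5100 simulated peaks lay on all chromosomes, including I and X. They were not clustered as the real peaks are, and each simulated replicate peak was a slightly widened whole-series peak. The share of near neighbours and the replicate overlap were not among the simulated measures. Tools were scipy 1.17.1, pandas 2.3.3, numpy 2.4.6 and matplotlib 3.10.9 in Python 3.11.15.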

Additional observations from a re-analysis of the deposited data

How the results depend on the processing

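With 4 chromosomes the exact test cannot pass 0.05, so only directions and sizes can be followed. The lower share of near neighbours in centres (between -25.9 and -8.03 percentage points over 10 settings), the replicate overlap (0.298 to 4.24 over 9), and both comparisons between replicates that were chosen after the values were seen (log2 1.22 to 2.22 over 8 settings and 0.11 to 0.20 over 6) kept their direction under each setting run for them. For the replicate overlap this holds for the mean only, since 2 of 4 chromosomes had its sign in the main setting and 1 of 3 without II or without IV. The share of near neighbours moves with peak density, which was lower in the centres, and the part of density was not tested. The share of peaks in both replicates, centre minus arms, had no stable direction. From -0.39 percentage points it moved to 0.0683 when the overlap had to reach 50% of the shorter peak, 0.0924 with midpoints, 0.0924 within score quartiles, 1.15 among peaks at or above the median score, 4.32 among peaks of at least 500 bp and, chosen after seeing the data, 6.76 in the highest quartile. Leaving out III, IV or V gave 1.04, 0.829 and 0.232, and leaving out replicate 1 or 2 gave 3.92 and -5.41. The score ratio became 0.0072 without III and 0.00049 without V. The width ratio became -0.033 with the middle 50% of a chromosome as centre, -0.054 among peaks at or above the median score and -0.11 without II. With the middle 50% as centre, the replicate score ratio became -0.020 and the outer-to-inner ratio 0.34. The replicate score ratio was 0.08 and 0.21 with replicate 1 or 2 left out. The cause of these changes was not tested. The overlap between replicates cannot be given without one of them. No paired analysis was possible because the replicate numbers tie ChIP only to input, of which no peak list was used here. Read depth is unknown, and so is its effect on the peak numbers.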

Other observations

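The centre of X, at 12.9 whole-series peaks per Mb, was the sparsest of the 6 and had the least support in the replicates. Of its 76 peaks, 20 or 26.3% (95% Wilson interval 17.7 to 37.2%) were in both, against 52.1% of the 934 peaks in the centres of II to V and 40.6% of the peaks in the arms of X. Of its 10 peaks of at least 1000 bp, 4 were in both replicates. The centre of I, with 241 peaks, stood at 52.3% (46.0 to 58.5%), and 51 of its 53 peaks of at least 1000 bp were in both. In the replicate lists the centre of X had no peak with a score of 3100, and its median scores were 162.75 in replicate 1 and 185.77 in replicate 2. The medians were 446.94 and 537.47 in the centres of II to V. These differences between chromosomes were not tested, since X is a single chromosome.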
